A study of Mus musculus with 18 samples.

Results

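The semaphorins, Slits and netrins and the receptors that read them were examined in differentiating mouse forebrain cultures treated with BMP2 or with the deacetylase inhibitor TSA. The 37 genes were taken by name: every probe set of the Affymetrix mouse array that the platform annotation pairs with 1 of these symbols and no other was collected, which gave 93 of the 45101 probe sets on the array. For each gene the probe set with the highest mean signal stood for the gene. The members were 19 ligands and 18 receptors, and 34 of the 37 were bright enough to be tested, 17 ligands and 17 receptors. Sema3f, Slit3 and Robo2 stayed below the limit of a mean signal of 100 in every group.

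The cultures came from the lateral and medial ganglionic eminences of C57BL/6 J mouse embryos at E15.5, the primordium of the striatum. Cells were grown as neurospheres, dissociated and plated to differentiate in medium with serum. They stayed untreated (control) or received either BMP2, a growth factor of the BMP family, at 10 ng/ml or 50 nM trichostatin A (TSA), which blocks class I and II histone deacetylases. RNA was taken after 6 h or 24 h and hybridised to 18 arrays: 2 control, 2 BMP2 and 2 TSA arrays at 6 h, and 6 control, 2 BMP2 and 4 TSA arrays at 24 h. Such cultures hold progenitors, neurons, astrocytes and oligodendrocyte precursors side by side, so a signal is an average over these cells, and fewer cells of a type cannot be told apart from less RNA per cell. The labels do not say whether replicates were separate cultures, so each p-value speaks of the spread among these arrays, which may be technical. The 2 treatments of a time share their control arrays, and their comparisons are given side by side.

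Axon guidance rests on ligands that attract or repel the tip of a growing axon or a migrating cell and on receptors that turn contact into movement. Secreted class 3 semaphorins bind neuropilins, which pair with A-type plexins, whereas membrane-bound semaphorins bind B-, C- and D-type or A-type plexins directly. Slits act through Robo receptors, netrins through Dcc and Neo1 for attraction and through Unc5 receptors for repulsion, and Rgma binds Neo1. In the ganglionic eminences these pairs steer migrating interneurons, oligodendrocyte precursors and the axons that cross the striatum.

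Signals below are linear array intensities after quantile normalization. Differences are given on the log2 scale of the signal plus 32, with the standard error, so they understate the change of a dim gene. The words rose and fell (a call) are used where limma, fitted to the 6 groups over 19439 probe sets, gave a Benjamini-Hochberg adjusted p under 0.05. Levels of different members come from different probes and are not compared, and markers are ordered by signal only to choose which to name. Arrays of 2 groups that do not overlap are common among so few: over all tested genes this held for 44.7% at BMP2 6 h, 31.9% at BMP2 24 h, 76.6% at TSA 6 h and 23.5% at TSA 24 h against the controls.

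A set of 4 arrays stood apart. Controls 5 and 6 of 24 h and both BMP2 arrays of 24 h had signals of 703 to 2086 with 1 of the 3 Xist probe sets, against 18.4 to 75.5 on the other 14 arrays. Another Xist probe set read 2197 to 4467 on the set and 325 to 1875 elsewhere, and the third went the other way with overlap, at 23.4 to 97.5 on the set and 66.8 to 375 elsewhere. The labels name no batch, so the set was handled as an alternative: a term for it in the model, or the controls 5 and 6 alone as the reference of 24 h. Values are given where this ended a call against the controls. Markers of the labelled tissue were present: 7 of 7 neural progenitor markers with a probe set passed the limit, among them Fabp7 (highest group mean 10086) and Vim (8723), as did 12 of 12 neuronal, 8 of 8 astrocyte and 13 of 13 oligodendrocyte lineage markers. None of 8 microglial markers passed, with a summed signal of 52.3 to 92.7 on each array and highest group means of 31.4 for Csf1r and 16.6 for P2ry12. The 3' to 5' signal ratio was 0.863 to 1.11 for Gapdh and 1.18 to 2.05 for beta-actin, highest on TSA 24 h replicate 4.

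The promoters of 4 members on which the results turn are shown as sequence context: both neuropilins, a ligand that rose at 24 h under either agent and a receptor that fell. Each line is the 250 bases upstream of the annotated start in RefSeq (GRCm38.p6, plus strand). The promoter table held 29 of the 37 members, with 37 windows. Capitals mark GGGCGG on either strand, the core of an Sp1 site, and in Plxnb3, which holds none, they mark CANNTG (an E-box) and ACAAAG (a Sox core).
Nrp1, chr8:128358823-128359072: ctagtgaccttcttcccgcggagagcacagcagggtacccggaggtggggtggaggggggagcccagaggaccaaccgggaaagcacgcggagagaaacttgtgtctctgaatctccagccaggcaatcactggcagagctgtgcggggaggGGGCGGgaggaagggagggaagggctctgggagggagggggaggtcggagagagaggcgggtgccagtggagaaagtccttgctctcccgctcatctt
Nrp2, chr1:62703067-62703316: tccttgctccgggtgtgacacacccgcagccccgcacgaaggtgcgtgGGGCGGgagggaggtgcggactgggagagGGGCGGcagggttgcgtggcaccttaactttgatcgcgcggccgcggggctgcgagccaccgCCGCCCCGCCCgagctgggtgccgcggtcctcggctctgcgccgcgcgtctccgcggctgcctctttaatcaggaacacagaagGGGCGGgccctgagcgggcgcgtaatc
Sema3c, chr5:17574566-17574815: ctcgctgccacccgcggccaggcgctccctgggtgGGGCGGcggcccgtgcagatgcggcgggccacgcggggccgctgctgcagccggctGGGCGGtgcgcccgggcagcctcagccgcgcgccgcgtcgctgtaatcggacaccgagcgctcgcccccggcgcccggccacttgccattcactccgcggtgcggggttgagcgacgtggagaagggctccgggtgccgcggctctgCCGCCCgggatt
Plxnb3, chrX:73756853-73757102: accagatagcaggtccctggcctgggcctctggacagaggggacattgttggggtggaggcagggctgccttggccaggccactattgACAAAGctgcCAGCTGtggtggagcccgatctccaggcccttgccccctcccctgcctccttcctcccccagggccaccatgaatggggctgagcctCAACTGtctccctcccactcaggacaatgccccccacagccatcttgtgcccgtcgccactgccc
GGGCGG occurred 1 time in the Nrp1 window, 5 times in that of Nrp2, where a pair of matches overlaps, and 3 times in that of Sema3c. Plxnb3 held 2 E-boxes and 1 ACAAAG, both strands searched. Of the members' 37 windows 25 held GGGCGG (67.6%), 18 CANNTG, 7 GGCGCC and 4 ACAAAG. Among all 32851 promoter windows of this length, 32.7% held GGGCGG, 66.2% CANNTG and 16.5% ACAAAG. The GC-rich Smad motif GGCGCC, present in 9.59% of all windows, occurred 1 time in Sema3c, and the Smad palindrome GTCTAGAC, present in 0.167%, in none of the members' windows. These matches describe letters in a window and not bound sites.

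After 6 h of BMP2, 2 of the 34 tested members rose (Nrp1 and Unc5c) and 0 fell, against 1.15% of all 10574 tested genes up and 0.643% down. At an unadjusted p under 0.05 limma placed 3 members up and 2 down. The 2 rises became 0 without any 1 of the 4 compared arrays, and 1 without either BMP2 array of 24 h or either TSA array of 6 h, which share in the estimate of the spread. After 24 h of BMP2, 6 rose (Sema3a, Sema3c, Slit2, Plxna2, Nrp1, Nrp2) and 7 fell (Sema3d, Sema4d, Sema5a, Sema5b, Ntn4, Plxnb1, Plxnb3), against 9.98% up and 7.76% down among all genes. The 6 that rose were 3 ligands and 3 receptors, the 7 that fell 5 ligands and 2 receptors. Without BMP2 24 h replicate 1, 4 rose and 6 fell, and without replicate 2, 5 rose and 4 fell.

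TSA gave 1 rise (Slit2) and 9 falls after 6 h (Sema5b, Sema6a, Sema6d, Ntn4, Rgma, Plxna2, Plxnb1, Plxnb3, Plxnc1), where 14.5% of all genes rose and 11.8% fell. The 9 that fell were 5 ligands and 4 receptors, and the count was 5 without either control of 6 h or TSA 6 h replicate 2. The 1 rise was lost without any 1 of the 4 compared arrays. With only the compared groups in the model 16 members fell. After 24 h of TSA 5 members rose (Sema3a, Sema3c, Slit2, Plxna1, Plxnb2) and 10 fell (Sema3d, Sema4c, Sema4d, Sema5a, Sema6a, Sema6d, Plxnb1, Plxnb3, Dcc, Unc5c), where 18.6% of all genes rose and 20.2% fell. The median difference of the members was -0.20 at BMP2 6 h, 0.02 at BMP2 24 h, -0.52 at TSA 6 h and -0.19 at TSA 24 h, beside -0.01, 0.03, 0.02 and -0.02 over all tested genes. With the replicate number as a block, which takes equal numbers as pairs, 8 members rose and 13 fell at TSA 24 h. The 8 included Ntn1 (0.81, adjusted p = 0.00167), Robo1 (0.98, adjusted p = 0.000788) and Plxnd1 (0.32, adjusted p = 0.0461). The 13 included Sema5b (-0.43, adjusted p = 0.0248), Unc5b (-0.58, adjusted p = 0.0186) and Neo1 (-0.36, adjusted p = 0.0213).

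**Figure D1:**
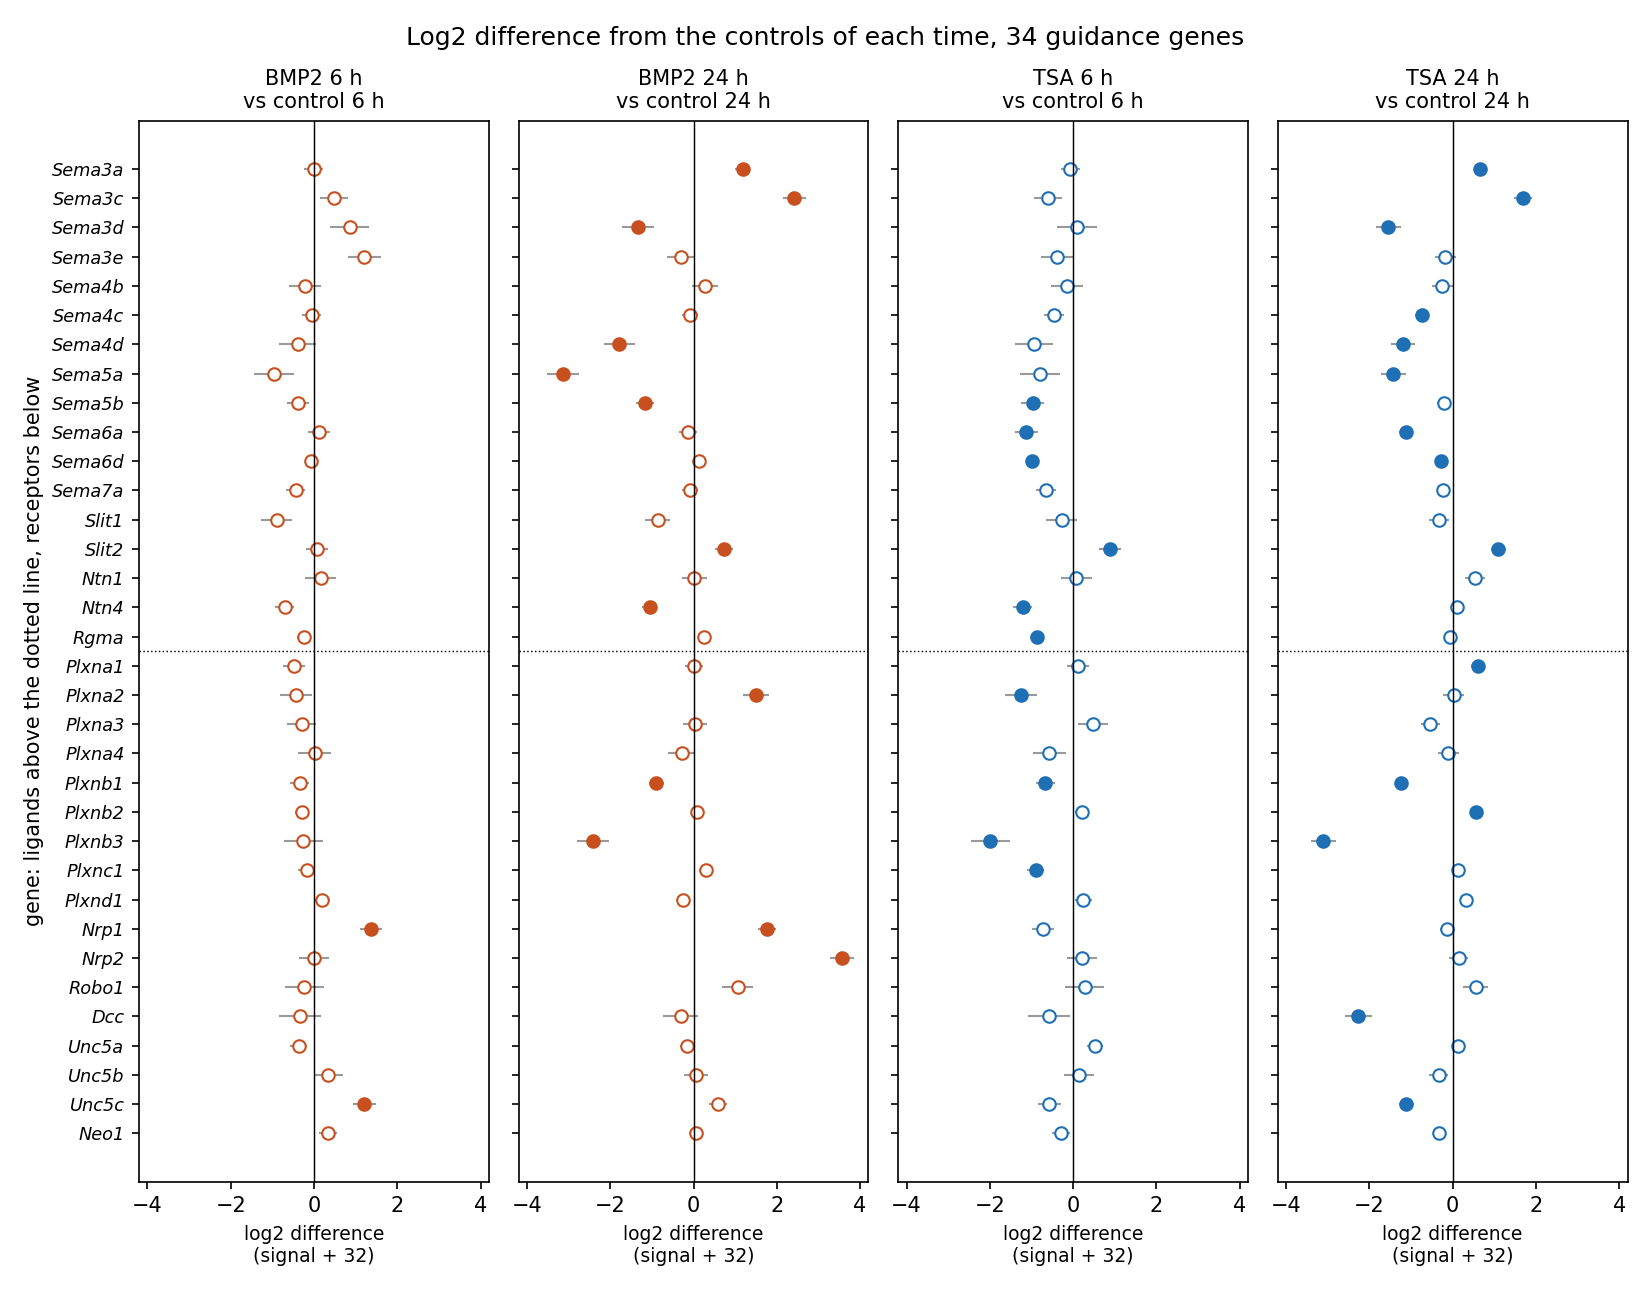
Log2 difference (signal plus 32) of each of the 34 tested members from the controls of its time in the 4 treatment comparisons, with bars for the standard error, filled points for an adjusted p under 0.05, ligands above the dotted line and receptors below. BMP2 at 24 h spread members in both directions, from -3.14 for Sema5a to 3.57 for Nrp2, while at TSA 6 h 9 of the 10 filled points lie below zero.

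Of the secreted class 3 semaphorins, Sema3a and Sema3c rose under both agents at 24 h, and Sema3d fell under both. Sema3c, a guidance cue for cortical axons, had the signals 500.5 and 341 on the BMP2 arrays of 24 h and 344, 176, 160.3 and 311 on the TSA arrays, against 30.5 to 88.5 with a median of 49.4 in the controls. All 6 treated arrays lay above all 6 controls. The difference was 2.42 ± 0.28, adjusted p = 1.61e-05 for BMP2 and 1.69 ± 0.22, adjusted p = 2.77e-05 for TSA. At 6 h it read 64.1 and 84 in controls, 103 and 127 under BMP2 and 42.8 and 31.8 under TSA, BMP2 above and TSA below the controls but neither a call (0.48 and -0.61).

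Sema3a, a repellent of many axons, was measured at 196 and 251 under BMP2 and at 159, 119, 141 and 159.7 under TSA at 24 h, with controls at 54.4 to 114 with a median of 80.1. Again no treated array overlapped the controls. The differences were 1.18 ± 0.18, adjusted p = 0.000314, and 0.65 ± 0.14, adjusted p = 0.0025. Against controls 5 and 6 alone the TSA value became 0.40, adjusted p = 0.0728. At 6 h the 3 groups overlapped, at 111 and 81.6 (control), 108 and 82.6 (BMP2) and 97.1 and 82.9 (TSA). Sema3a and Sema3c passed the limit of 100 only in treated groups (2 and 3 groups), so that their passing rested on the groups where they were high.

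Sema3d went the other way at 24 h. Controls spanned 176 to 632 with a median of 294, with control replicate 1 far above the rest, while BMP2 arrays stood at 78 and 122 and TSA arrays at 124, 155, 38.2 and 47.9. Both treated groups lay below all controls. The difference was -1.54 ± 0.30, adjusted p = 0.00102 for TSA and -1.34 ± 0.38, adjusted p = 0.0255 for BMP2. The BMP2 call was lost without BMP2 24 h replicate 1 (0.268) and without BMP2 24 h replicate 2 (0.0843), with the term for the set of arrays (-0.78, adjusted p = 0.31) and against controls 5 and 6 alone (-0.78, adjusted p = 0.282). The 6 h arrays read 143 and 143 in controls, 276 and 294 under BMP2 and 156 and 154 under TSA. Both treated pairs of 6 h lay above the controls without a call.

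Sema3e, the ligand of Plxnd1 passed the limit only at BMP2 6 h, with 237 and 240.2 against 58.9 and 119 in controls. Its brightest probe set gave 1.21 ± 0.40, adjusted p = 0.266, no call, whereas a dimmer probe set gave 1.49 ± 0.34, adjusted p = 0.0359. By 24 h the BMP2 signals were 67.4 and 44.7, within the range of the controls. Sema3f, too dim to test, had group means between 29.2 and 66.5.

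**Figure D2:**
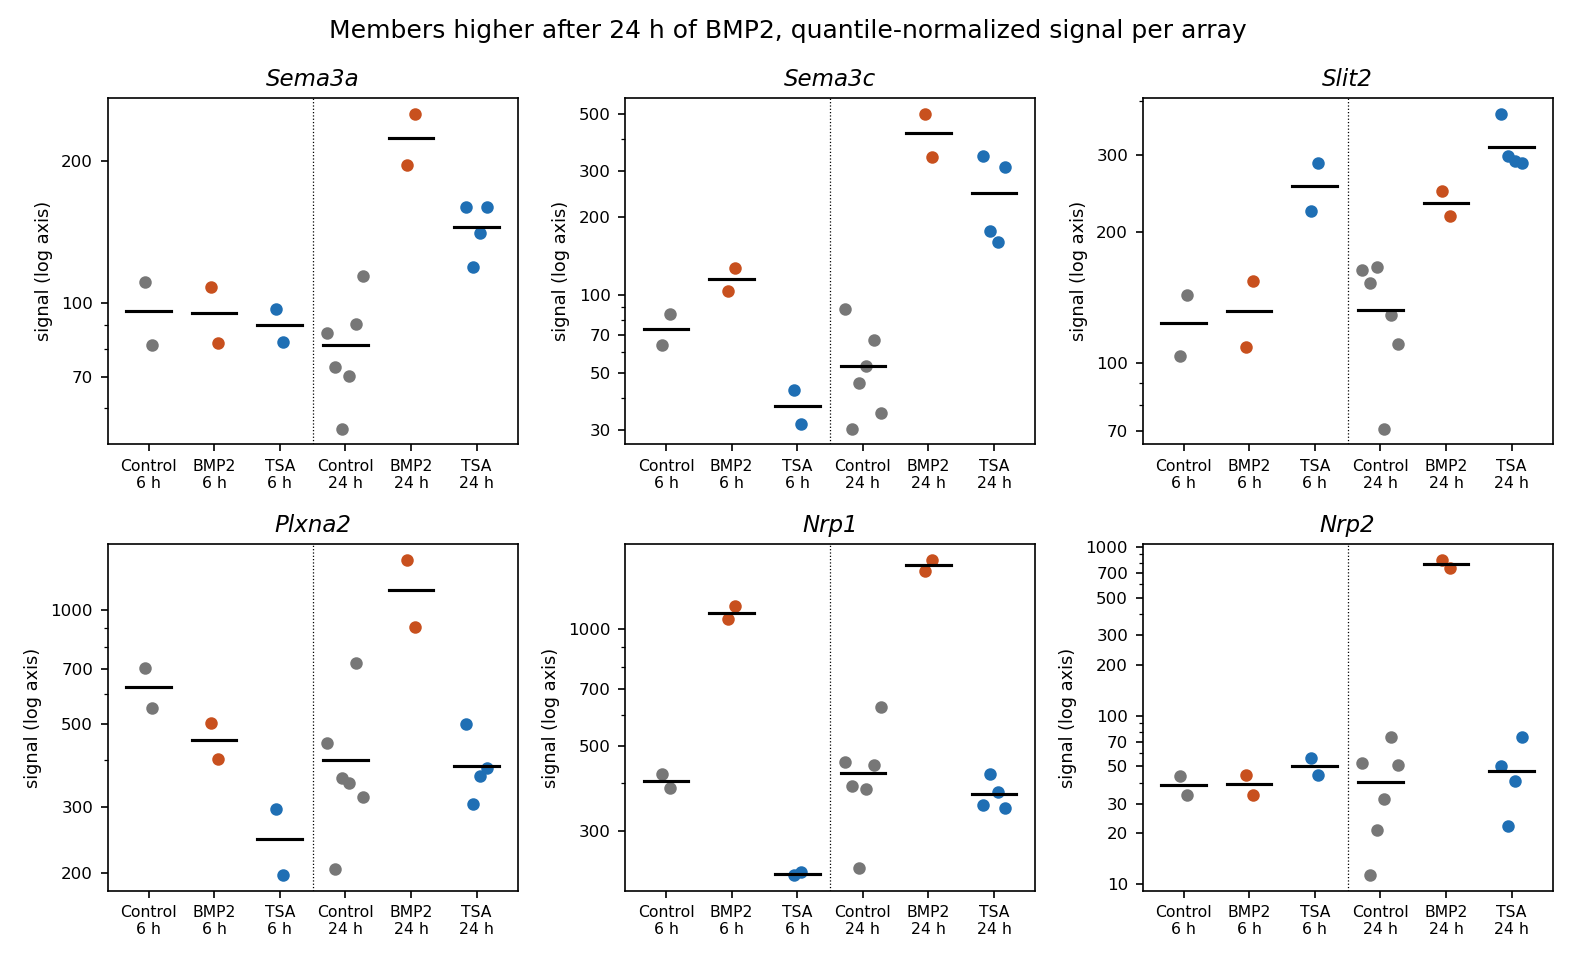
Quantile-normalized signal (log axis, ranges differ between panels) of the 6 members that rose after 24 h of BMP2, with 1 point per array, a bar at the group mean, control arrays in grey, BMP2 in orange and TSA in blue. Nrp2 stands at 74.4 or less on 16 arrays and at 745 and 835 in BMP2 24 h, Nrp1 is already high at BMP2 6 h, and Sema3a, Sema3c and Slit2 are high under TSA 24 h as well.

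Among the 8 membrane semaphorins none rose in any treatment comparison, 3 fell at BMP2 24 h, 3 at TSA 6 h and 5 at TSA 24 h. Of all tested genes 7.76%, 11.8% and 20.2% fell in these comparisons. Sema5a, a transmembrane semaphorin found on oligodendrocyte lineage cells, showed the deepest fall of any member, with 31.5 and 12.9 on the BMP2 arrays of 24 h and 166, 266, 89.1 and 101 on the TSA arrays, against 298 to 790.1 with a median of 381 in controls. Treated and control arrays did not overlap. The difference was -3.14 ± 0.39, adjusted p = 3.9e-05 for BMP2 and -1.42 ± 0.31, adjusted p = 0.00211 for TSA. A second probe set gave -2.22 ± 0.81, adjusted p = 0.0721 for BMP2 and -0.58 ± 0.64, adjusted p = 0.51 for TSA, neither a call, and with the mean of both the TSA call was lost (adjusted p = 0.0866). After 6 h the signals were 490.3 and 620.0 (control), 191 and 374 (BMP2) and 244 and 380.3 (TSA), both treated pairs below the controls but without a call.

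Sema4d, a ligand of B-type plexins, fell from 255 to 832 with a median of 365 in controls to 121 and 88.1 under BMP2, and it read 159, 269.7, 155 and 134 under TSA at 24 h. The BMP2 arrays lay below every control, and 1 TSA array reached into the control range. For BMP2 the difference was -1.79 ± 0.37, adjusted p = 0.00331, and for TSA -1.19 ± 0.29, adjusted p = 0.00511. The first was lost without BMP2 24 h replicate 2 (0.0696) and with the term for the set of arrays (-1.22, adjusted p = 0.0612), the second against controls 5 and 6 alone (-0.62, adjusted p = 0.0721). At 6 h Sema4d read 478 and 690.5 in controls, 331 and 553 with BMP2 and 255 and 319 with TSA.

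Sema5b, which repels the axons of several neuron types, fell under BMP2 at 24 h and under TSA at 6 h. The BMP2 arrays of 24 h stood at 133 and 148, below controls of 246 to 600.4 with a median of 363, a difference of -1.17 ± 0.22, adjusted p = 0.00164. The TSA arrays of 6 h stood at 278 and 303 against 570.2 and 631, a difference of -0.97 ± 0.27, adjusted p = 0.017, which was lost without control 6 h replicate 1 (0.0643), without control 6 h replicate 2 (0.103), without TSA 6 h replicate 1 (0.0949) and without TSA 6 h replicate 2 (0.0735). BMP2 at 6 h gave 432 and 476, below both controls without a call. At TSA 24 h the brightest probe set was inside the control range at 335, 287, 309.8 and 289.6 (-0.20 ± 0.17, adjusted p = 0.389), but it fell with the replicate block (-0.43, adjusted p = 0.0248), and its second probe set gave -0.78 ± 0.15, adjusted p = 0.000893.

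Sema6a and Sema6d, ligands of A-type plexins, were lower under TSA and not called under BMP2. Sema6a, which acts in both axon guidance and oligodendrocyte differentiation, was at 456 and 669 against 1113 and 1384 at 6 h and at 635, 673, 426 and 495 against 887 to 1574 with a median of 1286 at 24 h. At neither time did TSA and control arrays overlap. The 2 differences were -1.12 ± 0.27, adjusted p = 0.00773 (6 h) and -1.12 ± 0.17, adjusted p = 0.00016 (24 h). The call at 6 h was lost without control 6 h replicate 2 (0.0777) and without TSA 6 h replicate 1 (0.0966) and with the mean over probe sets (-0.94, adjusted p = 0.0747), and its 2 dimmer tested probe sets were not called at either time. Under BMP2 Sema6a read 1205 and 1521 at 6 h and 1046 and 1199 at 24 h. Sema6d had mean signals of 2024 ± 213 (SD, n = 2) under TSA and 4029 ± 367 (SD, n = 2) in controls at 6 h (-0.98 ± 0.12, adjusted p = 9.62e-05), and of 3180.4 ± 368 (SD, n = 4) and 3878 ± 184 (SD, n = 6) at 24 h (-0.29 ± 0.08, adjusted p = 0.0106), where 1 TSA array lay in the control range. A second probe set of Sema6d gave -1.31 ± 0.34, adjusted p = 0.0116 at 6 h and 0.09 ± 0.22, adjusted p = 0.771 at 24 h, so the late fall was seen with the brighter probe set only. On the BMP2 arrays of 24 h the brighter probe set of Sema6d lay above all controls without a call (0.14 ± 0.10, adjusted p = 0.376).

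Sema4c fell at TSA 24 h, where its mean was 120.1 ± 15.1 (SD, n = 4) and that of the controls 227 ± 55.6 (SD, n = 6) (-0.74 ± 0.15, adjusted p = 0.00136), with all 4 TSA arrays below all controls. Sema4b and Sema7a had no call in the 4 comparisons. The widest differences were 0.28 for Sema4b at BMP2 24 h and -0.65 for Sema7a at TSA 6 h, where its adjusted p was 0.0569. Sema4b depended on which controls were used: against controls 1 to 4 alone BMP2 24 h gave 0.64, adjusted p = 0.00658, and against controls 5 and 6 alone TSA 24 h gave -0.96, adjusted p = 0.00224.

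Slit2, the Robo ligand that repels axons and migrating neuroblasts, was higher under TSA at both times. Its signals were 223 and 288 on the TSA arrays of 6 h, against 104 and 144, and 374, 299, 291 and 288 on those of 24 h, against 70.7 to 166 with a median of 141. The groups did not overlap at either time. TSA gave 1.10 ± 0.17, adjusted p = 0.000177 at 24 h and 0.89 ± 0.27, adjusted p = 0.0269 at 6 h, the latter lost without control 6 h replicate 1 (0.202), without control 6 h replicate 2 (0.0509), without TSA 6 h replicate 1 (0.0547) and without TSA 6 h replicate 2 (0.202) and with no filter (0.89, adjusted p = 0.0544). BMP2 gave 109 and 155 at 6 h, overlapping the controls, and 249 and 217 at 24 h, above them (0.72 ± 0.22, adjusted p = 0.0345). That call was lost without BMP2 24 h replicate 1 (0.27) and without BMP2 24 h replicate 2 (0.135), with no filter (0.72, adjusted p = 0.0544), with only the compared groups (0.72, adjusted p = 0.103) and with the term for the set of arrays (0.80, adjusted p = 0.081). Slit1 passed the limit of 100 in 1 group only, with 108 ± 30.7 (SD, n = 2) in the controls of 6 h and lower means in the other groups, and was called in none of the 4 comparisons (BMP2 -0.90 at 6 h and -0.86 at 24 h). With the term for the set of arrays its BMP2 value at 24 h was -1.26, adjusted p = 0.0267. Against controls 5 and 6 alone its TSA value at 24 h was -0.71, adjusted p = 0.0221. Slit3 stayed at group means of 1.32 to 11.4.

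Ntn4, a netrin of the basement membrane that binds laminin, had a different course under each agent. At 6 h it fell under TSA, from 754 and 593 in the controls to 298 and 246 (-1.21 ± 0.22, adjusted p = 0.00135), and BMP2 arrays read 412 and 385, below the controls without a call (-0.70 ± 0.22, adjusted p = 0.223). At 24 h it was low only on the BMP2 arrays, 298 and 274, against 493 to 807 with a median of 635 in controls (-1.06 ± 0.18, adjusted p = 0.000805), while TSA arrays read 586, 795, 758 and 613, inside the control range (0.11 ± 0.14, adjusted p = 0.575). A dim second probe set of Ntn4 was not called in these comparisons. Ntn1, the netrin that attracts commissural axons through Dcc, had 925 ± 394 (SD, n = 6) in the controls of 24 h and 1277 ± 244 (SD, n = 4) under TSA (0.53 ± 0.24, adjusted p = 0.0947). The controls of 24 h spread widely for Ntn1, and with the term for the set of arrays the TSA value was 0.81, adjusted p = 0.00517. Rgma, a repulsive membrane-anchored ligand of Neo1, fell at TSA 6 h to 1061 ± 5.69 (SD, n = 2), the controls being at 1976 ± 169 (SD, n = 2) (-0.87 ± 0.15, adjusted p = 0.000841) and at 24 h was 1620.1 ± 246 (SD, n = 4) beside controls of 1676 ± 151 (SD, n = 6).

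The neuropilins, the ligand-binding subunits for class 3 semaphorins and coreceptors for VEGF, gave the largest rises of the receptors under BMP2. Nrp1 read 1060.0 and 1149 on the BMP2 arrays of 6 h against 422 and 389, and 1414 and 1511 on those of 24 h against 241 to 628 with a median of 419.6. At both times the BMP2 arrays lay above every control. Differences were 1.38 ± 0.26, adjusted p = 0.0101 at 6 h and 1.76 ± 0.21, adjusted p = 3.3e-05 at 24 h. The first was lost without control 6 h replicate 1 (0.079), without control 6 h replicate 2 (0.13), without BMP2 6 h replicate 1 (0.087) and without BMP2 6 h replicate 2 (0.119) and with the mean over probe sets (1.31, adjusted p = 0.11), and its other 2 tested probe sets had no call (1.39 ± 0.43, adjusted p = 0.209, and 1.17 ± 0.48, adjusted p = 0.55), whereas all 3 were called at 24 h. Under TSA Nrp1 read 232 and 235 at 6 h, below both controls (-0.72 ± 0.26, adjusted p = 0.0598), and 350.4, 421, 379 and 345 at 24 h, within them (-0.13 ± 0.17, adjusted p = 0.595), while against controls 5 and 6 alone TSA 24 h gave -0.47, adjusted p = 0.0149.

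Nrp2 rose under BMP2 at 24 h, and its signal was at most 74.4 on the 16 other arrays. Those 2 BMP2 arrays read 835 and 745, the controls of 24 h 11.4 to 74.4 with a median of 41.3, and the TSA arrays of 24 h 50.3, 22.2, 40.7 and 74.1. At 6 h the signals were 43.9 and 33.9 (control), 44.5 and 33.7 (BMP2) and 55.8 and 44.3 (TSA), so BMP2 and control arrays overlapped. The difference at 24 h was 3.57 ± 0.29, adjusted p = 4.51e-07. The other 2 tested probe sets rose as well (1.85 ± 0.17, adjusted p = 2.26e-06, and 3.03 ± 0.18, adjusted p = 1.96e-08). Nrp2 passed the limit of 100 through this 1 group alone. Against controls 5 and 6 alone, which share the Xist signal of the BMP2 arrays, the value was 3.13, adjusted p = 1.75e-05. In the marker list of endothelium 1 of 7 genes, Kdr, the main VEGF receptor, passed the limit. Kdr rose with BMP2 at 24 h (1.36 ± 0.19, adjusted p = 0.000129) and with TSA at 24 h (0.41 ± 0.15, adjusted p = 0.0421). Neither neuropilin was called at TSA 24 h. The other genes of the endothelial list had group means of at most 26.1. The part of such cells in the neuropilin signals was not tested.

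Of the A-type plexins, which transduce neuropilin-bound semaphorins, Plxna2 rose under BMP2 at 24 h and fell under TSA at 6 h. BMP2 arrays of 24 h read 1362 and 906, above controls of 206 to 724 with a median of 354 (1.49 ± 0.31, adjusted p = 0.00355). This call was lost without BMP2 24 h replicate 1 (0.109), with the term for the set of arrays (1.15, adjusted p = 0.0561) and against controls 5 and 6 alone (1.15, adjusted p = 0.0531). TSA arrays of 6 h read 297 and 198 against 705 and 549 (-1.25 ± 0.38, adjusted p = 0.0273), lost without control 6 h replicate 1 (0.171), without control 6 h replicate 2 (0.0684) and without TSA 6 h replicate 2 (0.212) and with the mean over probe sets (-0.75, adjusted p = 0.103). In the remaining groups it read 502 and 402 (BMP2 6 h) and 498, 306, 362 and 381 (TSA 24 h), the latter inside the range of the controls. Of its 3 dimmer tested probe sets, 2 also rose at BMP2 24 h, 1 did not reach a call (1.01 ± 0.42, adjusted p = 0.111), and none was called at TSA 6 h. Plxna1 rose at TSA 24 h, with 759 ± 173 (SD, n = 4) beside 491 ± 135 (SD, n = 6) in controls (0.61 ± 0.17, adjusted p = 0.011), which was 0.16, adjusted p = 0.454, against controls 5 and 6 alone. Plxna3 and Plxna4 had no call, with differences of -0.53 to 0.48 and of -0.57 to 0.02, while against controls 5 and 6 alone Plxna3 gave -0.99, adjusted p = 0.0076 at TSA 24 h.

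The B-type plexins, receptors of the class 4 semaphorins, moved apart from each other. Plxnb3, a plexin enriched in oligodendrocyte lineage cells, showed the deepest fall of any receptor. At 24 h it read 106, 272, 53 and 55.7 under TSA and 189 and 175 under BMP2, against 662 to 1708 with a median of 1180.5 in controls. At 6 h it read 266 and 248 under TSA and 956 and 896 under BMP2, against 1199 and 1033. All treated arrays lay below all controls of their time. The differences were -3.10 ± 0.30, adjusted p = 2.04e-06 (TSA 24 h), -2.42 ± 0.38, adjusted p = 0.000367 (BMP2 24 h) and -1.99 ± 0.47, adjusted p = 0.00648 (TSA 6 h), the last lost without control 6 h replicate 1 (0.0535) and without TSA 6 h replicate 2 (0.051), while BMP2 at 6 h had no call (-0.26). Its second probe set fell in the same 3 comparisons (-3.13 ± 0.27, adjusted p = 6.67e-07 at TSA 24 h).

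Plxnb1, the receptor of Sema4d, fell in the same 3 comparisons. Controls of 24 h spanned 619.8 to 1027 with a median of 890.3, TSA arrays read 349, 389.7, 259 and 371 (-1.23 ± 0.14, adjusted p = 1.19e-05), and BMP2 arrays 516 and 367 (-0.89 ± 0.18, adjusted p = 0.00315). Neither treated group reached the controls. At 6 h TSA arrays read 409.5 and 384 and BMP2 arrays 497 and 515, against 670.0 and 630.4, with -0.67 ± 0.22, adjusted p = 0.0421 for TSA. The BMP2 call of 24 h was lost without BMP2 24 h replicate 2 (0.115). The TSA call of 6 h was lost without control 6 h replicate 1 (0.181), without control 6 h replicate 2 (0.123), without TSA 6 h replicate 1 (0.118) and without TSA 6 h replicate 2 (0.191), without quantile normalization (-0.61, adjusted p = 0.0521), with median scaling (-0.62, adjusted p = 0.0519) and with no filter (-0.67, adjusted p = 0.0794), although its second probe set gave -0.75 ± 0.18, adjusted p = 0.00663. Plxnb2, by contrast, rose at TSA 24 h to 1258 ± 130.0 (SD, n = 4), with controls at 849 ± 81.8 (SD, n = 6) (0.55 ± 0.10, adjusted p = 0.000742), all 4 TSA arrays above all controls. Plxnc1, the receptor of Sema7a, fell at TSA 6 h, its mean being 273 ± 10.8 (SD, n = 2) against 537 ± 15.9 (SD, n = 2) in controls (-0.90 ± 0.21, adjusted p = 0.00621). Plxnd1 had differences of -0.25 to 0.32 and no call.

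**Figure D3:**
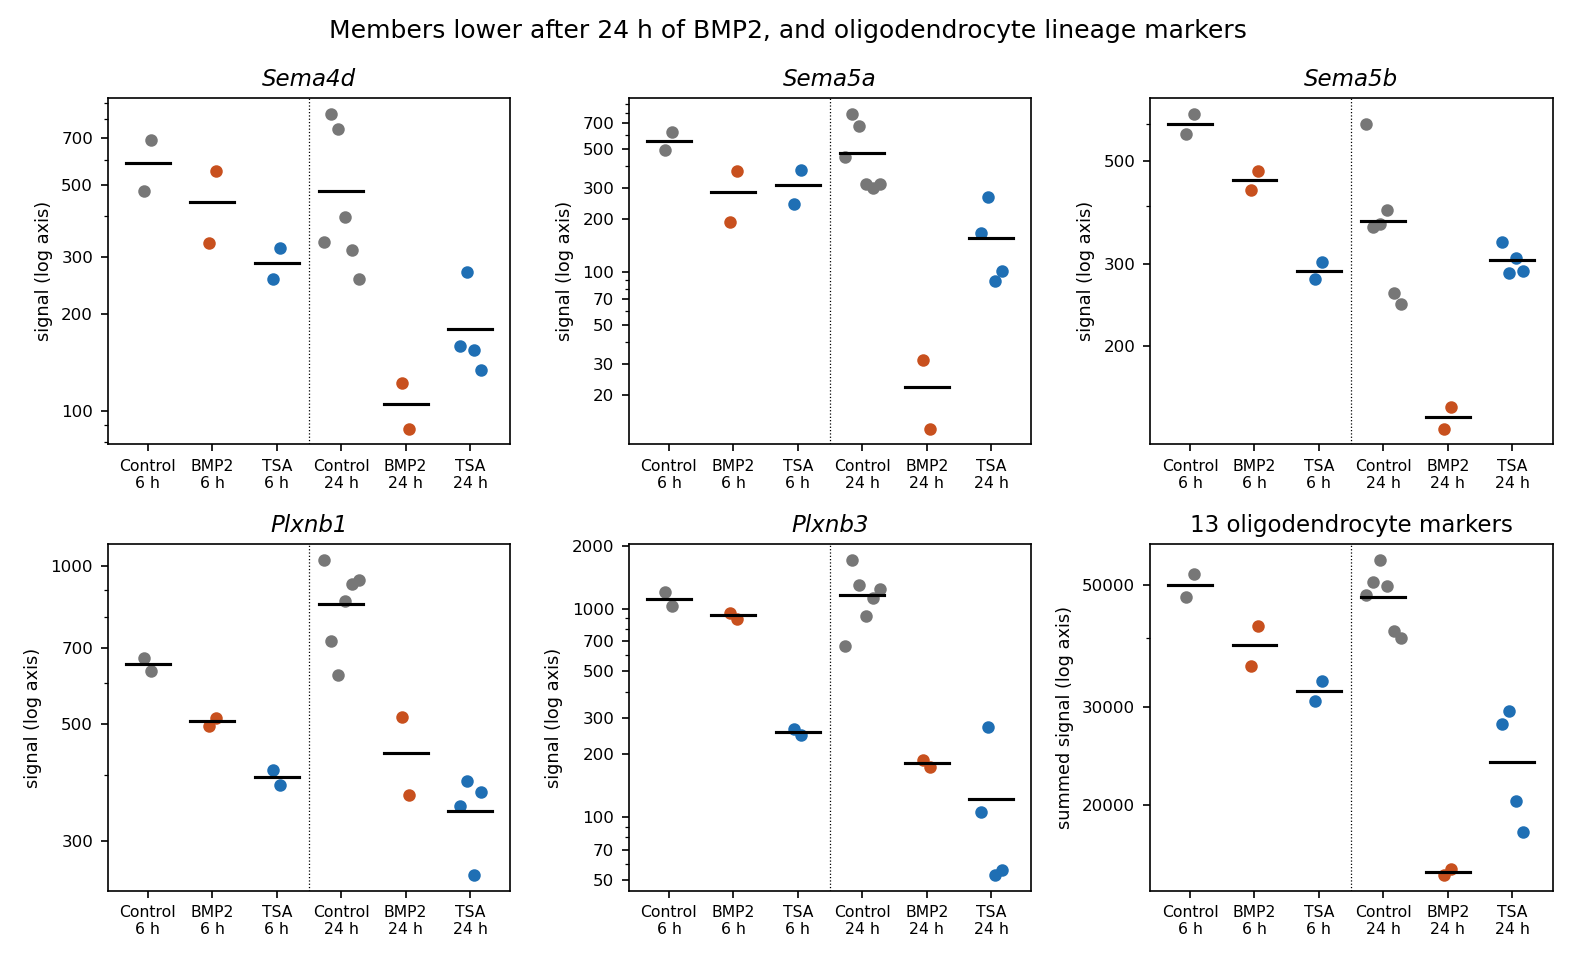
Quantile-normalized signal (log axis, ranges differ between panels) of 5 members that fell after 24 h of BMP2, and in the last panel the summed signal of 13 oligodendrocyte lineage markers, with 1 point per array and a bar at the group mean. The BMP2 24 h arrays are lowest for Sema4d, Sema5a, Sema5b and the markers, and the TSA 24 h group has the lowest mean for Plxnb1 and Plxnb3.

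Markers of the oligodendrocyte lineage were lower at 24 h under both agents, as were Sema4d, Sema5a, Plxnb1 and Plxnb3. Sema5b was not called at TSA 24 h, and Sema4d and Sema5a were not called at TSA 6 h. The 13 markers with a probe set summed to 39982 to 55397 on the controls of 24 h, to 14930 and 15269 on the BMP2 arrays and to 17832 to 29524 on the TSA arrays, and at 6 h to 47562 and 52211 (control), 35686 and 42004 (BMP2) and 30761 and 33482 (TSA). Of these 13, 1 fell at BMP2 6 h, 10 at BMP2 24 h, 5 at TSA 6 h and 10 at TSA 24 h, and 0 rose. Among all tested genes 0.643%, 7.76%, 11.8% and 20.2% fell in these comparisons. The 2 brightest of the 13 markers were Mbp, a myelin protein, and Cnp, a myelin enzyme. They changed by -1.60 and -1.53 at BMP2 24 h and by -1.18 and -0.85 at TSA 24 h. Named after their values were seen, Gpr17, a receptor of maturing precursors, changed by -4.72 and -4.46, while Olig1, a transcription factor of the lineage, was not called (-0.23 and 0.05). Within TSA 24 h, replicates 3 and 4 had the lowest summed marker signal and also the lowest Plxnb3, Sema5a and Sema4d. Plxnb1 was lowest on replicates 3 and 1. Replicates 3 and 4 were also the lowest TSA arrays of 24 h for Sema3d, Sema6a, Dcc and Unc5c, which are not shown with the markers. The part of these cells in the falls of Sema4d, Sema5a, Plxnb1 and Plxnb3 was not tested.

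Among the remaining receptors, Dcc and Unc5c, the netrin receptors for attraction and repulsion, were lower under TSA at 24 h. Dcc read 235, 139, 68.7 and 134 on the TSA arrays, against 515 to 1575 with a median of 625 in controls, where replicates 5 and 6 stood at 1197 and 1575 and the other 4 at 515 to 683. No TSA array reached a control. The difference was -2.26 ± 0.32, adjusted p = 7.47e-05. At 6 h Dcc read 768 and 406 in controls, 520.2 and 363 with BMP2 and 441 and 297 with TSA, and at BMP2 24 h 610.2 and 608, overlapping or within the controls. Its dimmer probe set fell both at TSA 24 h (-1.39 ± 0.25, adjusted p = 0.000585) and at BMP2 24 h (-1.05 ± 0.32, adjusted p = 0.0351), the second in contrast to the brightest probe set (-0.31 ± 0.41, adjusted p = 0.641). With a replicate block within each time and the set of arrays kept apart, the brightest probe set also fell at BMP2 24 h (-1.13, adjusted p = 0.00407). With the term for the set, or against controls 5 and 6 alone, it had no call there.

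Unc5c lay on opposite sides of the controls under the agents. BMP2 arrays of 6 h read 299 and 280.4 and TSA arrays 55.3 and 68.4, on either side of controls at 102 and 113. At 24 h BMP2 arrays read 269 and 227 and TSA arrays 82.4, 66.3, 38.3 and 37.4, again above and below controls of 105 to 209.8 with a median of 155. Called were the rise at BMP2 6 h (1.21 ± 0.27, adjusted p = 0.0375) and the fall at TSA 24 h (-1.12 ± 0.18, adjusted p = 0.000176). The rise was lost without control 6 h replicate 1 (0.304), without control 6 h replicate 2 (0.2), without BMP2 6 h replicate 1 (0.325) and without BMP2 6 h replicate 2 (0.194), with a pseudocount of 16 (1.31, adjusted p = 0.0506) and with no filter (1.21, adjusted p = 0.0668), though its second probe set also rose (1.07 ± 0.23, adjusted p = 0.0218). BMP2 at 24 h gave 0.58 ± 0.22, adjusted p = 0.0864, where the second probe set overlapped the controls (-0.04 ± 0.18, adjusted p = 0.911), and TSA at 6 h -0.57 ± 0.27, adjusted p = 0.15.

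Robo1, a Slit receptor, was not called in any treatment comparison, with 753 and 888 at BMP2 24 h against 196 to 706 with a median of 371 in controls (1.06 ± 0.38, adjusted p = 0.0677). Its controls 5 and 6 stood at 706 and 706, the other 4 at 196 to 472. Against controls 1 to 4 alone BMP2 at 24 h gave 1.48, adjusted p = 0.000545, and with the replicate block 1.37, adjusted p = 0.000548. With the term for the set of arrays, or against controls 5 and 6 alone, BMP2 had no call. TSA at 24 h gave 0.55 ± 0.30, adjusted p = 0.165, and 0.98, adjusted p = 0.00149, with the term for the set of arrays. Unc5a passed the limit only at TSA 6 h (116 ± 10.2 (SD, n = 2) against 70.7 ± 0.346 (SD, n = 2) in controls, 0.52 ± 0.20, adjusted p = 0.0704). Unc5b and Neo1 had no call against the controls, with differences of -0.33 to 0.35 and of -0.32 to 0.34, but both fell at TSA 24 h with the replicate block (-0.58, adjusted p = 0.0186, and -0.36, adjusted p = 0.0213), and Unc5b with the term for the set of arrays (-0.58, adjusted p = 0.0392). Robo2 stayed at group means of 15.6 to 49.9.

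**Figure D4:**
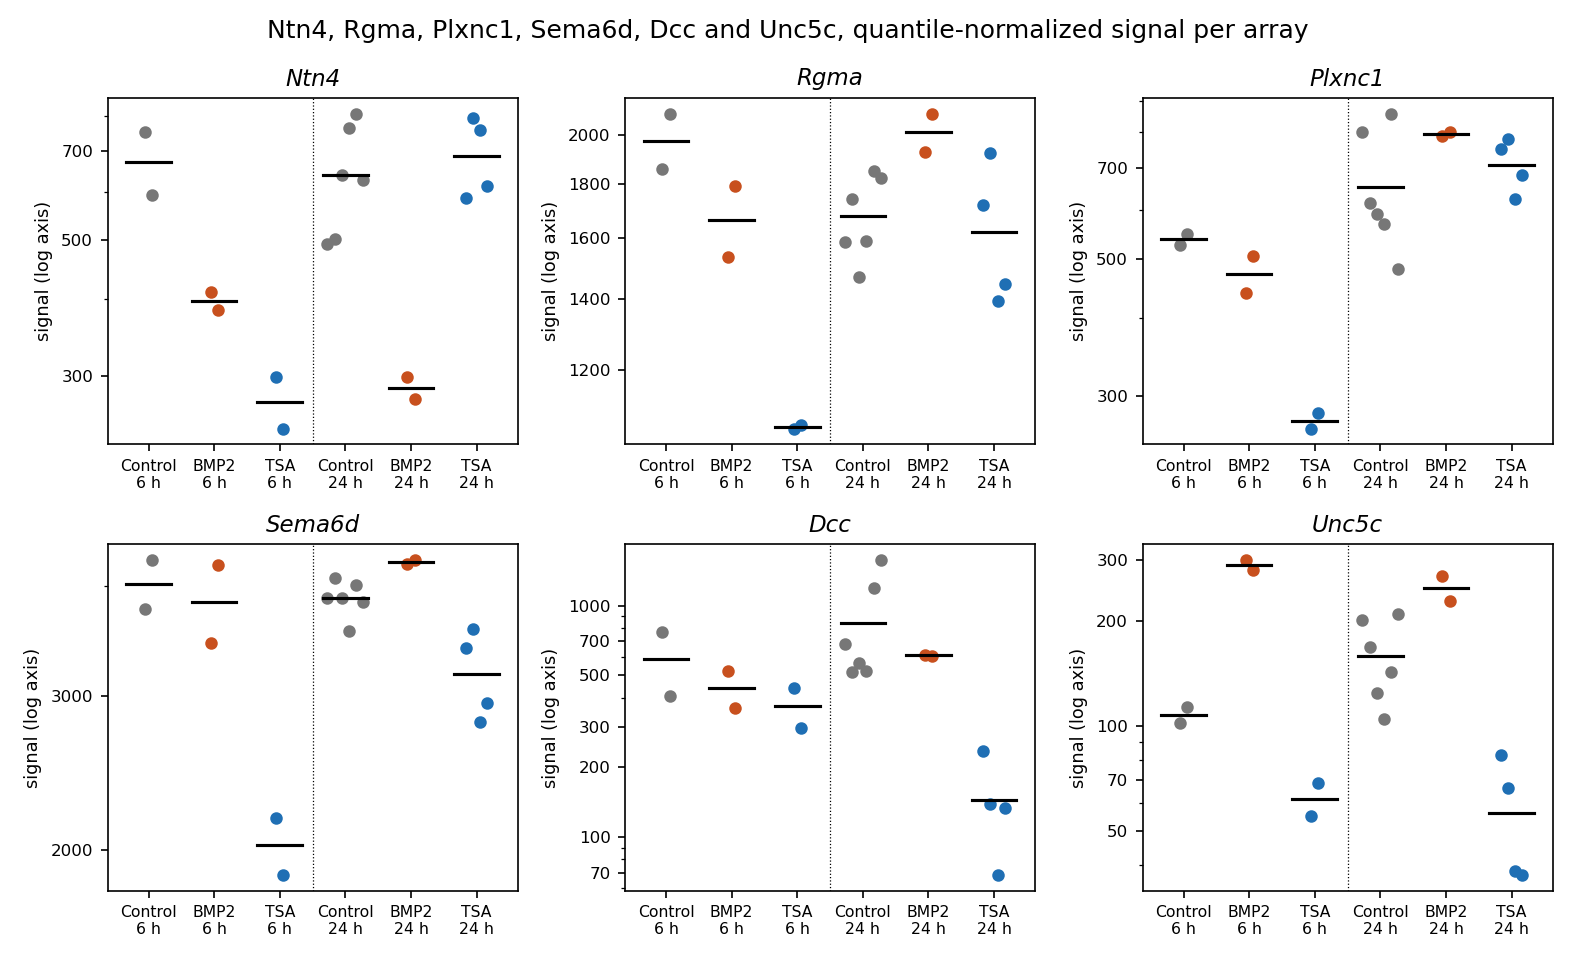
Quantile-normalized signal (log axis, ranges differ between panels) of Ntn4, Rgma, Plxnc1, Sema6d, Dcc and Unc5c, with 1 point per array and a bar at the group mean. Ntn4, Rgma, Plxnc1 and Sema6d are low at TSA 6 h and back within or closer to the controls at TSA 24 h, Dcc is low at TSA 24 h, and Unc5c lies above the controls under BMP2 and below them under TSA at both times.

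Set directly against each other at the same time, TSA and BMP2 differed in 13 of 34 members at 6 h (3 higher and 10 lower with TSA) and in 15 at 24 h (6 higher and 9 lower), beside 28% and 38.4% of all tested genes in either direction. Unc5a passed the limit only at TSA 6 h, Sema3e only at BMP2 6 h and Nrp2 only at BMP2 24 h. Each of them was therefore tested only because it was high in a group compared here. At 6 h the calls for Nrp1 (-2.10 ± 0.26, adjusted p = 5.54e-05), Unc5c (-1.78 ± 0.27, adjusted p = 0.000281), Sema6d (-0.91 ± 0.12, adjusted p = 0.000111) and Unc5a (0.89 ± 0.20, adjusted p = 0.00404) held with each array of the 2 groups left out in turn. The other 9 (Sema3c, Sema3e, Sema6a, Slit2, Rgma, Plxnb2, Plxnb3, Plxnc1, Neo1) did not: 7 were lost without BMP2 6 h replicate 1 (adjusted p 0.0507 to 0.26), 8 were lost without BMP2 6 h replicate 2 (adjusted p 0.0527 to 0.152), 8 were lost without TSA 6 h replicate 1 (adjusted p 0.0556 to 0.199) and 6 were lost without TSA 6 h replicate 2 (adjusted p 0.0796 to 0.24). At 24 h the calls for Nrp2 (-3.42 ± 0.31, adjusted p = 1.31e-06), Nrp1 (-1.88 ± 0.23, adjusted p = 2.04e-05), Unc5c (-1.70 ± 0.24, adjusted p = 7.37e-05), Ntn4 (1.17 ± 0.19, adjusted p = 0.000319) and Dcc (-1.95 ± 0.43, adjusted p = 0.00285) held in this way. Of the other 10 (Sema3a, Sema4c, Sema5a, Sema5b, Sema6a, Sema6d, Plxna1, Plxna2, Plxnb2, Plxnd1), 5 were lost without BMP2 24 h replicate 1 (adjusted p 0.0542 to 0.177), 8 were lost without BMP2 24 h replicate 2 (adjusted p 0.0534 to 0.345), 1 was lost without TSA 24 h replicate 1 (adjusted p 0.115), 1 was lost without TSA 24 h replicate 2 (adjusted p 0.0865), 2 were lost without TSA 24 h replicate 3 (adjusted p 0.0666 to 0.074) and 1 was lost without TSA 24 h replicate 4 (adjusted p 0.0691). With the term for the set of arrays 8 of the 15 calls at 24 h were lost: Sema3a (-0.15, adjusted p = 0.759), Sema4c (-0.24, adjusted p = 0.597), Sema5a (adjusted p = 0.257), Sema5b (0.30, adjusted p = 0.458), Sema6d (-0.40, adjusted p = 0.104), Plxna2 (-0.95, adjusted p = 0.179), Plxnd1 (0.57, adjusted p = 0.141) and Dcc (-0.72, adjusted p = 0.33). Ntn1 (1.36, adjusted p = 0.0167) and Unc5b (-1.13, adjusted p = 0.0481) were gained. Sema6d at 24 h was -0.43 ± 0.11, adjusted p = 0.00619 by its brightest probe set and 0.82 ± 0.29, adjusted p = 0.037 by the other, in opposite directions.

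The effect of TSA differed between 24 h and 6 h for 5 members, where 11.6% of all tested genes differed. For all 5 the value at 24 h was above that at 6 h: Sema3c by 2.30 ± 0.40, adjusted p = 0.00357, Ntn4 by 1.32 ± 0.27, adjusted p = 0.00703, Plxnc1 by 1.04 ± 0.25, adjusted p = 0.0176, Rgma by 0.82 ± 0.18, adjusted p = 0.0118 and Sema6d by 0.69 ± 0.15, adjusted p = 0.0101. Sema3c went from -0.61 at 6 h to 1.69 at 24 h. The other 4 were low at 6 h and near the controls, or less low, at 24 h. Apart from Sema3c these calls were lost on leaving out single arrays: Ntn4 without control 6 h replicate 1 (0.0541) and without TSA 6 h replicate 2 (0.0621), Plxnc1 without control 6 h replicate 1 (0.0645), without control 6 h replicate 2 (0.0858), without TSA 6 h replicate 1 (0.0807) and without TSA 6 h replicate 2 (0.0737), Rgma without control 6 h replicate 2 (0.0815), without TSA 6 h replicate 1 (0.0539) and without TSA 6 h replicate 2 (0.0627), and Sema6d without control 6 h replicate 2 (0.0768) and without TSA 6 h replicate 2 (0.0798). The effect of BMP2 differed between the times for 1 member, Nrp2 (3.57 ± 0.46, adjusted p = 0.00104), where 0.775% of all genes did. Nrp2 was tested only because it passed the limit at BMP2 24 h. Between the controls of 24 h and 6 h limma called 0 members, against 4.34% of all genes, and at an unadjusted p under 0.05 it placed 1 higher and 3 lower at 24 h. Sema3d had the widest of these differences (0.91 ± 0.38, adjusted p = 0.175).

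Inside the cell, guidance receptors act on small GTPases, kinases and the actin skeleton. Of 47 such mediators 40 were tested: 0 were called at BMP2 6 h (4 at an unadjusted p under 0.05), 4 rose and 5 fell at BMP2 24 h, 6 rose and 8 fell at TSA 6 h, and 6 rose and 12 fell at TSA 24 h. Over all tested genes 1.15% rose and 0.643% fell at BMP2 6 h, and 9.98% and 7.76% at BMP2 24 h. Under TSA the shares were 14.5% and 11.8% at 6 h, and 18.6% and 20.2% at 24 h. The median differences of the mediators were -0.05, 0.03, -0.11 and -0.16. At BMP2 24 h the smallest adjusted p belonged to Fyn, a kinase of the Dcc and semaphorin pathways (-0.91 ± 0.12, adjusted p = 9.9e-05), Srgap3, a Slit-Robo GTPase-activating protein (0.68 ± 0.11, adjusted p = 0.000344), and Rnd1, a GTPase that binds plexins (1.49 ± 0.26, adjusted p = 0.000924). With TSA at 6 h these were Rras, the GTPase that plexins inactivate (1.25 ± 0.17, adjusted p = 0.000179), Trio, an exchange factor downstream of Dcc (-1.23 ± 0.19, adjusted p = 0.000438), and Dock1, an exchange factor for Rac (-0.91 ± 0.15, adjusted p = 0.000471). At TSA 24 h they were again Rras (1.30 ± 0.11, adjusted p = 5.9e-07), then Pak3, a Rac effector kinase (-1.87 ± 0.19, adjusted p = 2.48e-06), and Micall1 (-1.16 ± 0.12, adjusted p = 3.06e-06). At BMP2 6 h Srgap2 (-0.84 ± 0.20, adjusted p = 0.051), Pak3 (-1.09 ± 0.29, adjusted p = 0.0882) and Trio (-0.48 ± 0.19, adjusted p = 0.54) came first without a call.

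Of 18 relatives of the members 9 were bright enough to be tested. In the order BMP2 6 h, BMP2 24 h, TSA 6 h and TSA 24 h, 0, 1, 1 and 0 rose and 1, 2, 2 and 2 fell. In the same order 1.15%, 9.98%, 14.5% and 18.6% of all tested genes rose and 0.643%, 7.76%, 11.8% and 20.2% fell. Dscaml1, a homophilic adhesion molecule related to the netrin receptor Dscam, fell in all 4 comparisons, with differences of -2.18 ± 0.15, adjusted p = 1.07e-07 at TSA 24 h, -1.61 ± 0.24, adjusted p = 0.000282 at TSA 6 h, -0.95 ± 0.19, adjusted p = 0.00297 at BMP2 24 h and -1.61 ± 0.24, adjusted p = 0.00143 at BMP2 6 h. Dscam itself fell at BMP2 24 h (-1.65 ± 0.34, adjusted p = 0.00354), TSA 6 h (-1.63 ± 0.42, adjusted p = 0.0115) and TSA 24 h (-2.22 ± 0.27, adjusted p = 1.69e-05), and at BMP2 6 h gave -0.93 ± 0.42, adjusted p = 0.732. Sema6b rose at BMP2 24 h (0.85 ± 0.24, adjusted p = 0.0249) and Sema4g at TSA 6 h (0.80 ± 0.19, adjusted p = 0.0062), whereas Rgmb at TSA 24 h (0.36 ± 0.14, adjusted p = 0.0546) and Sema6b at BMP2 6 h (0.14) had no call.

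Other cell type markers moved too. Of 12 neuronal markers 0 were called at BMP2 6 h (2 at an unadjusted p under 0.05 by limma), 3 rose at BMP2 24 h, 2 rose and 3 fell at TSA 6 h, and 2 rose and 4 fell at TSA 24 h. Over all tested genes 1.15% rose and 0.643% fell at BMP2 6 h, and 9.98% and 7.76% at BMP2 24 h. Under TSA the shares were 14.5% and 11.8% at 6 h, and 18.6% and 20.2% at 24 h. The neuronal markers summed to 4106 to 5057 on the TSA arrays of 24 h, below the 6103 to 8664 of the controls. Their median difference there was -0.15. Dcc and Unc5c were low on the same arrays. At TSA 6 h the sum was 5836 and 6733, below controls of 8426 and 9712, and neither gene was called. Within TSA 24 h the sum was lowest on replicate 3, as was Dcc, and highest on replicate 4, where Unc5c was lowest. Of the 2 brightest, Map2 changed by -0.44 and Elavl3 by -1.44 at TSA 24 h. Of 8 astrocyte markers 0 were called at BMP2 6 h, 5 fell at BMP2 24 h and 3 fell at each time under TSA. Gja1 and Aqp4, the 2 brightest, gave -1.01 and 0.40 at BMP2 24 h. The part of these cell types in the results was not tested.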

How the data were processed

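Expression was measured on 18 Affymetrix whole-genome mouse arrays of neurosphere-derived cultures. The authors deposited a linear intensity per probe set (array medians 35.43 to 41.59). MAS5 stands in the submitters' processing notes, with no version, whereas dChip and its quantile normalization stand in the methods. For the present work all 45101 probe sets were quantile-normalized, 32 was added, and the log2 was taken. Tests covered the 19439 probe sets whose highest group mean reached 100, in R 4.3.3 with limma 3.58.1 (1 model of the 6 groups, eBayes with trend, Benjamini-Hochberg adjustment within each comparison), and 10574 genes were represented by their brightest probe set. The number of arrays limits the precision.

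Symbols came from the platform annotation (34958 probe sets with 1 gene, 932 with several, 9211 with none) and were updated through the Entrez identifier, which left the symbol of all 93 member probe sets as it was. The members and all lists were chosen with earlier results of these data known. Signals on every array are given for members with an adjusted p under 0.05 and an absolute log2 difference of at least 1 in at least 1 of the 4 treatment comparisons, and group means for the others. From the lists of mediators and relatives the 3 smallest adjusted p of each comparison are named.

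Whether equal replicate numbers pair the arrays was checked by correlating deviations from the group means. For TSA and control at 24 h the correlations were 0.407, 0.57, 0.436 and 0.281. TSA replicates 1, 2 and 3 correlated most with the control of their own number, while replicate 4 correlated more with another control. Equal numbers were therefore used as pairs only in an alternative. The correlations were 0.567 to 0.713 at 6 h, with only 2 pairs in each case, and -0.184 to 0.00311 for the BMP2 arrays of 24 h. Arrays of 1 group correlated at 0.913 to 0.988, and no pair shared more than 0.641% of its values.

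The alternatives were other normalizations, pseudocounts of 16 and 64, other filters, the mean over probe sets, no trend, only the compared groups, the replicate block, a term for the set of 24 h arrays that stood apart, the criteria of the methods (ratio over 2, difference over 100, unadjusted p under 0.1), and each array left out. Chosen after seeing the data were the block within each time with the set kept apart, and the 24 h controls 1 to 4 or 5 and 6 alone. The steps were tested on simulated data. RT-PCR, protein data and supplementary tables were not used here.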

Additional observations from a re-analysis of the deposited data

Results flagged for a closer look

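In groups of 4 or 6 arrays, 3 of the 68 groups of member signals held an array set apart from the nearest other array by more than Dixon's criterion allows, which chance gives in about 1 of 20 groups. Control 24 h replicate 1 had a Sema3d signal of 632, the nearest control 334.9. TSA 24 h replicate 4 had a Sema4c signal of 97.72, the nearest TSA array 124.7. TSA 24 h replicate 1 had a Slit2 signal of 374, the nearest 298.7.

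The effect of a treatment differed between 24 h and 6 h, by the limma test of the difference itself, in 6 cases. For BMP2 this was Nrp2 (3.57 on the log2 scale), which was tested only because it passed the limit at BMP2 24 h. For TSA it was Sema3c (2.30), Ntn4 (1.32), Plxnc1 (1.04), Rgma (0.82) and Sema6d (0.69). Apart from Sema3c the TSA calls were lost on leaving out single arrays. Among all tested genes 0.775% differed between the times for BMP2 and 11.6% for TSA.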

How the results depend on the processing

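Over 74 called member results and their alternatives, 1348 of 1525 values kept the direction and the call, 176 kept the direction without the call, and 1 turned: Sema6d between TSA and BMP2 at 24 h was 0.20 (adjusted p = 0.37) with the mean over probe sets. Of the 176, 92 came from leaving out an array. The number of arrays limits what can be shown, and in a group of 2 (all groups at 6 h and BMP2 at 24 h) leaving out 1 array leaves a lone array that is taken to vary like the other groups. Where no cause is named, the cause was not tested.

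Leaving out each array in turn, BMP2 6 h gave 0 to 2 members up and 0 down, BMP2 24 h 4 to 8 up and 4 to 8 down, TSA 6 h 0 to 1 up and 5 to 10 down, TSA 24 h 5 to 7 up and 10 to 11 down, TSA against BMP2 5 to 14 at 6 h and 7 to 17 at 24 h, the difference between times 1 to 2 for BMP2 and 1 to 7 for TSA, and the controls of 24 h against 6 h 0 to 1.

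Other counts moved by over 1.5 times as follows. The 2 rises at BMP2 6 h became 1 with a pseudocount of 16, with no filter and with the mean over probe sets. The 1 rise at TSA 6 h became 2 with a pseudocount of 64, without the intensity trend and with only the compared groups, and 0 with no filter, while the 9 falls became 16 with only the compared groups. The 5 rises at TSA 24 h became 2 by the criteria of the methods, 8 against controls 1 to 4 alone and 3 against controls 5 and 6 alone. TSA against BMP2 became 22 with only the compared groups and 5 by the criteria of the methods at 6 h (13 in the report), and 9 with the term for the set of arrays and 9 by the criteria at 24 h (15 in the report). The difference between times for BMP2 (1) became 2 with median scaling, a pseudocount of 64, the mean over probe sets or only the compared groups, and 10 with controls 1 to 4 alone. That for TSA (5) became 9 with the term for the set, 9 with controls 1 to 4 and 8 with controls 5 and 6. The controls of 24 h against 6 h (0) gave 2 with the term for the set, 1 by the criteria of the methods, 1 with controls 1 to 4 and 6 with controls 5 and 6.

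With the replicate block, and in brackets with the block within each time and the set kept apart, TSA 6 h gave 2 (2) up and 14 (15) down, TSA 24 h 8 (8) up, TSA against BMP2 at 6 h 20 (21), the difference between times 16 (5) for BMP2 and 12 (16) for TSA, and the controls 7 (3). BMP2 6 h had 1 fall with the second of these. The block also ended the call of Slit2 at BMP2 24 h (0.53, adjusted p = 0.0657). Between BMP2 and control at 24 h the arrays share only a number (r of 0.00311 and -0.13). Arrays of 6 h with the same number deviated from their group means in a related way (r of 0.567 to 0.713). With only 2 pairs in each case, this does not settle whether those arrays were paired.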
